A study of Mus musculus with 6 samples.

Results

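Type I interferon stimulated genes are the transcripts that cells switch on when interferon-α or interferon-β binds its receptor. The 40 genes described here were listed by symbol, and each was found by an exact match of its symbol to a row of the gene tables. Of the 40, 38 had a row among 17191 rows in all, and all 38 were among the 12721 genes with enough reads to be tested. Mx1 and Mx2, which encode antiviral GTPases, had no row and were not analysed here.

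The 6 libraries were made from subcutaneous tumours of CT26, a mouse colorectal carcinoma line, in female BALB/c mice of 6 to 8 weeks with no labelled genetic change. Mice were randomised at tumour volumes of 100 to 200 mm3 and dosed by mouth every day for 3 weeks, 1 group with TP-18 at 50 mg/kg (libraries TP-18 1 to 3) and the other with vehicle (vehicle 1 to 3). TP-18 is known here only by its code name. The series design describes flow-sorted CD11b+F4/80+CD206+ macrophages, whereas the treatment protocol describes bead-selected CD11b+ cells and the sample characteristics give the tumour line. Since no label ties a library to its own mouse, the p-values below measure the spread between libraries, which may be technical.

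In the canonical pathway the receptor activates the kinases Jak1 and Tyk2, and a signal passes to a DNA-binding factor that contains Stat2 and Irf9. This factor recognises the interferon stimulated response element in the promoters of target genes. The products sense foreign nucleic acid, degrade or sequester RNA, stop translation, block viral entry and release, and tune the pathway itself. In tumour macrophages this program is among the recurrent states that have been described.

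The core of the response element, GAAANNGAAA or its reverse complement TTTCNNTTTC, was searched in the RefSeq promoters of GRCm38.p6, from 250 bases before to 50 bases after each start, with overlapping matches counted separately. It was present in 13 of the 29 members with a promoter entry (44.8%), against 1079 of 27025 genes in the promoter table (3.99%) and 393 of the 10137 tested genes with an entry (3.88%). Over single promoters of the same length, 1131 of 32851 held it (3.44%). The stretches of the 6 most abundant holders are shown because they carry a sequence feature that the listing by symbol did not use. They are written 5′ to 3′ on the strand of the gene, with the core in capitals:
Ifitm3, chr7:141010715-141010743, minus strand: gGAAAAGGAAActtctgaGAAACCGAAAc
Bst2, chr8:71537567-71537622, minus strand: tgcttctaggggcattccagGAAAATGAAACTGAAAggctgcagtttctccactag
Isg15, chr4:156200855-156200916, minus strand: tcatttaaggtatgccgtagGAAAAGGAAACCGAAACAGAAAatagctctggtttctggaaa
Rsad2, chr12:26456543-26456592, minus strand: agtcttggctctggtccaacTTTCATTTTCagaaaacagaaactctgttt
Stat2, chr10:128270256-128270305, plus strand: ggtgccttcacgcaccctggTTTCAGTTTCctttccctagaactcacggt
Ifih1, chr2:62646206-62646233, minus strand: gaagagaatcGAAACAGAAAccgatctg
The capitals in Isg15 are 3 overlapping cores, which begin 78, 72 and 66 bases before the start, and those in Bst2 are 2 overlapping cores. The cores of Ifitm3 and Ifih1 lie just after the start. In the neighbouring paralogs Ifit3 and Ifit3b the core occurred 2 times each on the reverse strand.

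**Figure D1:**
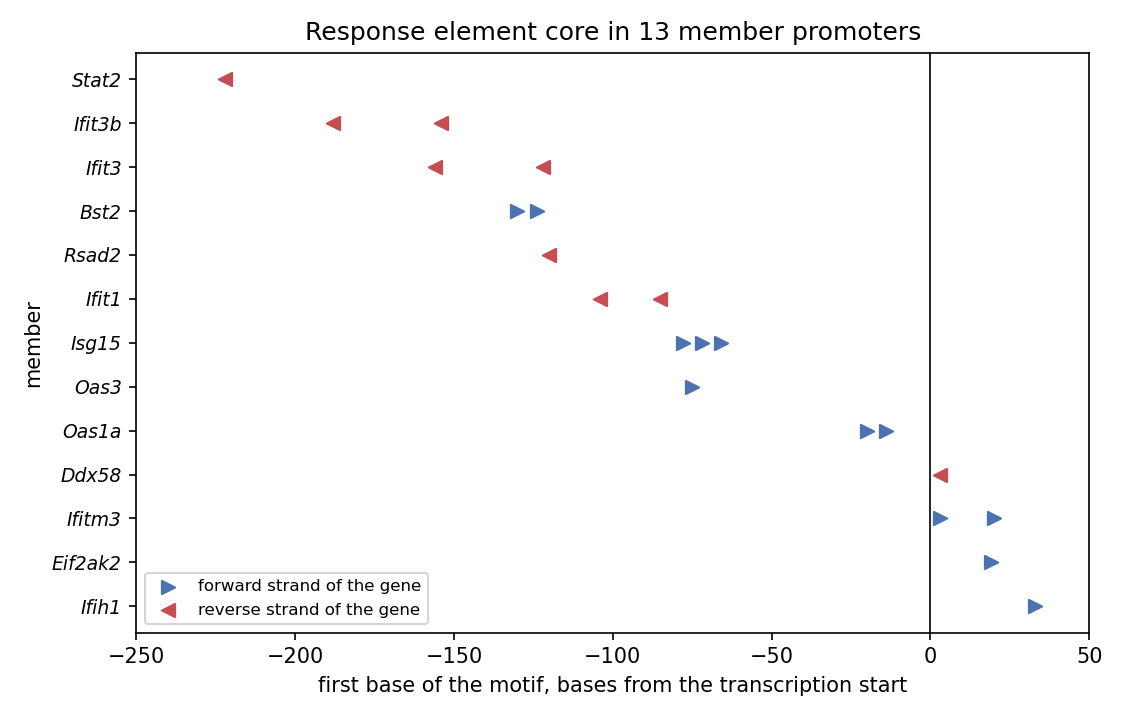
Positions of the response element core in the promoters of the 13 members that hold it; the horizontal axis is the first base of each match in bases from the transcription start, and the triangles give its strand. Matches lie on both sides of the start, and Isg15 has the most, 3.

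A match describes only these letters in this window. The 13 holders had 9 positive and 4 negative log2 fold changes (TP-18 over vehicle) with a median of 0.19, and the 16 members without a match in the window had 11 and 5 with a median of 0.10. The holders included Isg15 and Rsad2, both with lower values after TP-18, and Ddx58 and Eif2ak2, both with higher values. Trim25 and Oasl1, the members with the largest negative differences, had no match in the window. The measured members Dhx58, Zbp1, Ifi204, Usp18, Parp9, Parp14, Rtp4, Oas2 and Ifi27l2a had no promoter entry.

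No member passed the test between TP-18 and vehicle, and the members did not share a direction. Most values of the RNA sensors, of the Parp9 and Dtx3l pair and of the antiviral effectors were modestly higher after TP-18, whereas Trim25, Oasl1, Isg15 and Ifi204 had lower values in all TP-18 libraries than in any vehicle library. With edgeR's quasi-likelihood test, 0 of 38 members had an adjusted p under 0.05, against 0.11% of all genes tested (14 genes; 0.0236% higher and 0.0865% lower), and the smallest adjusted p among members was 0.102, for Trim25. DESeq2 called 2 members, Trim25 (adjusted p = 6.56e-05) and Oasl1 (adjusted p = 0.0315), both lower, against 4.54% of 12472 genes with an adjusted p in that tool. Limma called none. At an unadjusted edgeR p under 0.05 there were 13 members (34.2%), 9 higher and 4 lower, against 16.3% of all genes, made up of 7.56% higher and 8.7% lower. This share depended on single libraries: it was 13.2% (against 9.05% of all genes) without TP-18 1, 15.8% (against 11.7%) without TP-18 3, 18.4% (against 12.8%) without vehicle 3 and 21.1% (against 19.2%) without vehicle 1. It was 23.7% (against 14.4%) without TP-18 2 and 31.6% (against 14.1%) without vehicle 2.

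CPM, the count scaled to the library size, is given with TMM factors, the scaling of edgeR that equalises the bulk of genes. On this scale the vehicle and TP-18 libraries did not overlap for 12 of 38 members (31.6%), against 23.3% of all genes. Of these, 8 were higher with TP-18 (21.1% of members, against 11.6% of all genes) and 4 were lower (10.5%, against 11.7%). The share lower is thus near the background and the share higher is above it. With plain library totals, as in the deposited FPKM, 17 of 38 members lay apart and higher, against 23.5% of all genes. On that scale 2 of 38 lay apart and lower (Trim25 and Oasl1), against 4.76% of all genes. The members had 26 positive and 12 negative log2 fold changes. Negative values made up 31.6% of members and 47.4% of all genes, and the median was 0.18, against 0.02 for all genes. That median leaned on vehicle 3 and vehicle 2: it was 0.06 with 18 negative members without vehicle 3, and 0.30 with 6 negative members without vehicle 2. Total counts were 16371128 to 17597645 per library. In a bulk sample, fewer cells of a type and less RNA per cell cannot be told apart.

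**Figure D2:**
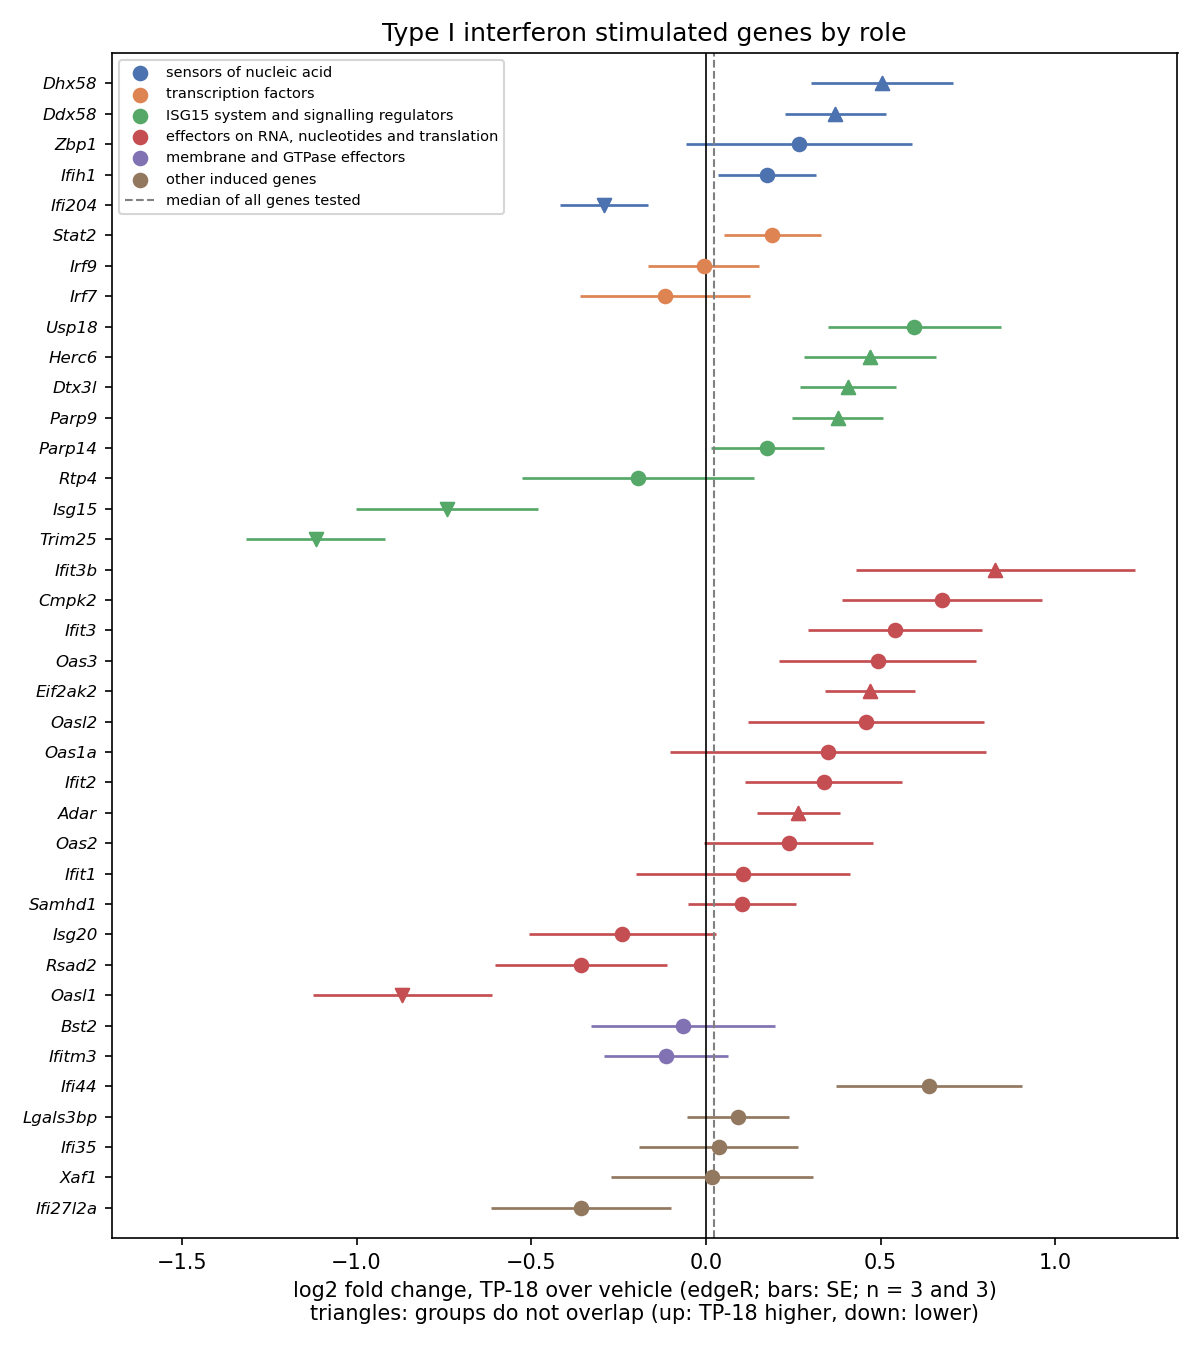
Log2 fold change (TP-18 over vehicle, edgeR) of each of the 38 members on the horizontal axis, by role, with bars of 1 standard error and n = 3 libraries per group; triangles mark members whose groups do not overlap. Most points lie right of the dashed line, the median of all genes, and Trim25 lies farthest left.

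Among the 5 sensors of nucleic acid, 4 had a positive log2 fold change and the median was 0.27. Ddx58 (RIG-I), a cytosolic sensor of viral RNA ends, had 31.2, 35.6 and 27.7 CPM in vehicle 1 to 3 and 42.8, 41.6 and 37.9 CPM in TP-18 1 to 3. Dhx58 (LGP2), a related helicase that regulates RIG-I and MDA5, had 16.7, 23.9 and 15.1 CPM in vehicle and 25.1, 25.2 and 28.7 CPM with TP-18. For both helicases every TP-18 library was above every vehicle library, by a log2 fold change of 0.37 ± 0.14 (SE) for Ddx58 and 0.50 ± 0.20 for Dhx58, with edgeR adjusted p = 0.275 and 0.286. Reads over 141 exonic bases of Dhx58 could also come from its antisense gene Dhx58os, since use of strand in counting was not given. Ifih1 (MDA5), which senses long double-stranded RNA, and Zbp1, a sensor of Z-form nucleic acid linked to necroptosis, overlapped between the groups, with log2 fold changes of 0.18 ± 0.14 and 0.27 ± 0.32. Ifi204, a nuclear and cytosolic DNA sensor, was the exception in direction. It had 141, 144 and 123 CPM in vehicle and 109.9, 115 and 109.8 CPM with TP-18. The groups lay apart by a small gap (log2 fold change −0.29 ± 0.12, edgeR adjusted p = 0.305) and overlapped with library totals. Ifi204 belongs to a family of close copies on chromosome 1, so the split of reads among them is uncertain.

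The 3 transcription factors showed no common direction. Irf7, which drives interferon-α transcription, had 121, 198 and 119.96 CPM in vehicle and 127, 112 and 166 CPM with TP-18. Irf9, the DNA-binding partner of Stat2, had 48.0, 65.1 and 46.7 CPM in vehicle and 52.1, 55.2 and 51.7 CPM with TP-18. Vehicle 2 was the highest library for both, and the groups overlapped. Their log2 fold changes of −0.12 ± 0.24 and −0.01 ± 0.16 turned positive with library totals. Stat2 was at 0.19 ± 0.14, with overlapping groups.

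The ISG15 system and the regulators near it had members on both sides, among them the largest negative difference of any member. ISG15 is a ubiquitin-like protein that is joined to other proteins by ligases such as Herc6 and removed by Usp18, and Trim25 is a ubiquitin ligase that activates RIG-I. Trim25 (chr11:88999376-89020293) had 243, 287 and 392 CPM in vehicle and 137, 158 and 130.2 CPM with TP-18. The means were 307 ± 76.2 and 142 ± 14.7 CPM (SD, n = 3 each), and the lowest vehicle library was above the highest TP-18 library by a wide margin. Its log2 fold change was −1.12 ± 0.20 (edgeR adjusted p = 0.102), the lowest of any member.

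Isg15 itself had 60.9, 92.0 and 44.5 CPM in vehicle and 42.4, 33.0 and 42.5 CPM with TP-18. Vehicle 2 was the highest library, and vehicle 3 lay only just above the TP-18 libraries (log2 fold change −0.74 ± 0.26, edgeR adjusted p = 0.242). With library totals the Isg15 groups overlapped. Herc6, the main ISG15 ligase of the mouse, had the opposite sign, with 25.4, 22.0 and 16.8 CPM in vehicle and 30.8, 26.3 and 31.8 CPM with TP-18. The Herc6 groups lay apart (0.47 ± 0.19, edgeR adjusted p = 0.285), although 1269 of its exonic bases, 13.7%, are shared with the same-strand transcript Gm45193. Usp18, which also binds the receptor and dampens its signal, had 15.6, 23.2 and 13.04 CPM in vehicle and 30.6, 26.0 and 21.7 CPM with TP-18, and vehicle 2 overlapped the TP-18 range.

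Parp9 and Dtx3l encode partners in an ADP-ribosyltransferase and ubiquitin ligase complex and lie head to head on chromosome 16, with Dtx3l at chr16:35926511-35939151 on the minus strand and Parp9 at chr16:35938470-35972605 on the plus strand. Parp9 had 33.6, 39.1 and 34.7 CPM in vehicle and 45.3, 44.1 and 50.2 CPM with TP-18. Dtx3l had 27.9, 23.9 and 25.3 CPM in vehicle and 32.0, 36.1 and 34.1 CPM with TP-18. Both lay apart and higher with TP-18, by 0.38 ± 0.13 and 0.41 ± 0.14, with edgeR adjusted p = 0.238 each. The pair shares 458 exonic bases on opposite strands, so without strand the reads there cannot be assigned. The nearby Parp14, another ADP-ribosyltransferase, was at 0.18 ± 0.16 with overlapping groups. Rtp4, a receptor-transporting chaperone, had 41.3 CPM in vehicle 2 and 17.7 to 26.0 CPM in all other libraries.

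**Figure D3:**
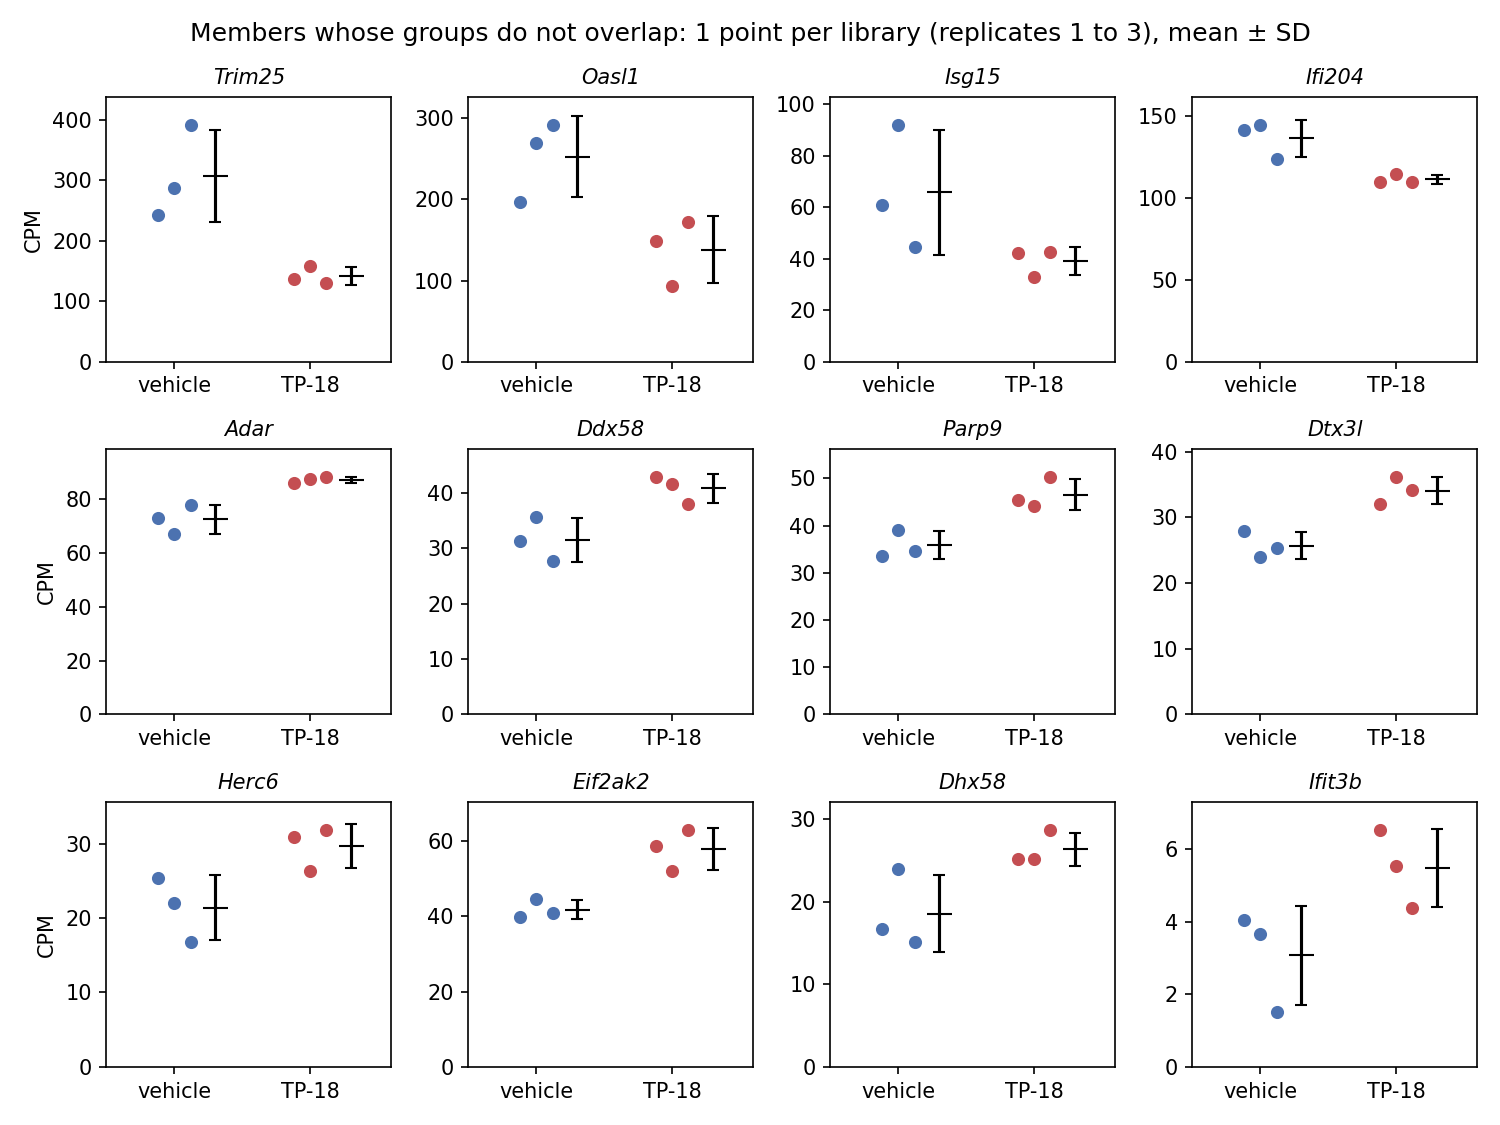
CPM per TMM-scaled library of the 12 members whose groups do not overlap, with 1 point per library and the mean ± SD beside each group of 3. In the top row (Trim25, Oasl1, Isg15 and Ifi204) the vehicle points are higher, and in the other 8 panels the TP-18 points are higher.

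The effectors on RNA, nucleotides and translation formed the largest group, with 12 of 15 log2 fold changes positive and a median of 0.34. Eif2ak2 (PKR), the kinase that halts translation on double-stranded RNA, had 39.9, 44.6 and 40.9 CPM in vehicle and 58.8, 51.9 and 62.9 CPM with TP-18. This was the clearest of the positive differences, at 0.47 ± 0.13 (edgeR adjusted p = 0.197), with little spread among the vehicle libraries. Adar, the editing enzyme that marks self RNA, had 72.9, 67.0 and 77.6 CPM in vehicle and 86.0, 87.3 and 88.0 CPM with TP-18. The Adar difference was small, at 0.26 ± 0.12 (edgeR adjusted p = 0.322), and the 3 TP-18 libraries were nearly equal. Of its exonic bases, 1365 (16.8%) are shared with Chrnb2 on the opposite strand.

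The Ifit genes, whose proteins bind viral RNA and stop its translation, stand in a row on chromosome 19 in the order Ifit2, Ifit3, Ifit3b and Ifit1. Ifit3b, the least abundant member at a mean of 1.95 FPKM, had 4.06, 3.65 and 1.52 CPM in vehicle and 6.52, 5.54 and 4.37 CPM with TP-18. Its groups lay apart (0.83 ± 0.40, edgeR adjusted p = 0.350), but it is a close copy of Ifit3 and the split of reads between them is uncertain. Ifit3 (0.54 ± 0.25), Ifit2 (0.34 ± 0.23) and Ifit1 (0.11 ± 0.31) overlapped between groups. For all 4 genes TP-18 1 was the highest of the 6 libraries.

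The oligoadenylate synthetases, which make the activator of RNase L, and their relatives were split between neighbours. Oasl1 (chr5:114923240-114937915), a catalytically inactive relative known to hold back translation of Irf7, had 196, 269 and 291 CPM in vehicle and 149, 92.7 and 172 CPM with TP-18. Oasl2, which ends 11005 bases upstream on the same strand, had 52.5, 67.8 and 24.1 CPM in vehicle and 77.4, 57.9 and 63.1 CPM with TP-18. Oasl1 was lower in every TP-18 library (−0.87 ± 0.26, edgeR adjusted p = 0.210), whereas Oasl2 overlapped with the opposite sign (0.46 ± 0.34). Oas3, Oas1a and Oas2 were at 0.49 ± 0.28, 0.35 ± 0.45 and 0.24 ± 0.24 with overlapping groups, and reads of Oas1a may be shared with its close copies.

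Rsad2 (viperin), a radical SAM enzyme that makes a chain-terminating nucleotide, and Cmpk2, a mitochondrial nucleotide kinase beside it on chromosome 12, also had opposite signs. Rsad2 had 155, 213 and 167 CPM in vehicle and 161, 91.5 and 164 CPM with TP-18. Cmpk2 had 13.3, 27.3 and 18.5 CPM in vehicle and 39.9, 26.5 and 28.1 CPM with TP-18. Rsad2 was low in TP-18 2 alone (−0.36 ± 0.25), and Cmpk2 was high in TP-18 1 (0.68 ± 0.29, edgeR adjusted p = 0.301). Samhd1, which hydrolyses nucleotides, and Isg20, an exonuclease, were at 0.10 ± 0.15 and −0.24 ± 0.27 with overlapping groups.

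The most abundant members per transcript length were not among those that lay apart on the TMM scale, apart from Oasl1, the fifth. Ifitm3, which blocks fusion of viruses in endosomes, had 597, 768 and 495 FPKM in vehicle and 634, 637 and 673 FPKM in TP-18 libraries. Bst2 (tetherin), which holds budding virus at the membrane, had 126, 162 and 79.3 FPKM in vehicle and 155, 107 and 134 FPKM in TP-18 libraries. For both, the vehicle libraries spanned the TP-18 libraries, and their TMM-scaled log2 fold changes of −0.11 ± 0.18 and −0.07 ± 0.26 turned positive with library totals. Ifi27l2a, a mitochondrial membrane protein, had 72.9, 149.7 and 93.9 FPKM in vehicle and 91.6, 87.8 and 101 FPKM in TP-18 libraries. Lgals3bp, a secreted galectin ligand, had 82.1, 80.5 and 83.5 FPKM in vehicle and 100.1, 84.3 and 112 FPKM in TP-18 libraries. Ifi27l2a was high in vehicle 2 alone, and the Lgals3bp groups lay apart in FPKM but overlapped in TMM-scaled CPM. Vehicle 2 was also the library in which Ifitm3 and Bst2 were highest. Of the other induced genes, Ifi44 was at 0.64 ± 0.27 (edgeR adjusted p = 0.296) with overlapping groups, and Ifi35 and Xaf1, a factor linked to apoptosis, were at 0.04 ± 0.23 and 0.02 ± 0.29.

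The vehicle libraries differed from each other in most members. Vehicle 2 was the highest vehicle library for 28 of 38 members (73.7%, against 33.4% of all genes), and vehicle 3 the lowest for 25 (65.8%, against 35.7%). The mean of log2(CPM + 0.5) after centring each gene was −0.12, 0.23 and −0.32 in vehicle 1 to 3 and 0.16, −0.04 and 0.10 in TP-18 1 to 3. On this scale all TP-18 libraries lay between vehicle 2 and vehicle 3. The ratio of the highest to the lowest library was larger in vehicle than with TP-18 for 30 of 38 members, with medians of 1.63 and 1.299. This ratio was not computed over all genes, so the wider vehicle spread is not shown to be particular to the members. Over all genes tested, pairs of vehicle libraries correlated at 0.952 to 0.966 and pairs of TP-18 libraries at 0.957 to 0.978. The members with the widest ratio in vehicle were Oas1a (3.64, against 1.74 with TP-18), Oasl2 (2.82 against 1.34) and Ifit3b (2.67 against 1.49). The other 8 members were wider with TP-18, among them Ifit1 (1.72 in vehicle and 2.07 with TP-18) and Oasl1 (1.49 and 1.86). Trim25, Oasl1, Parp14, Adar and Lgals3bp, 5 members in all, had their highest vehicle value in vehicle 3.

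**Figure D4:**
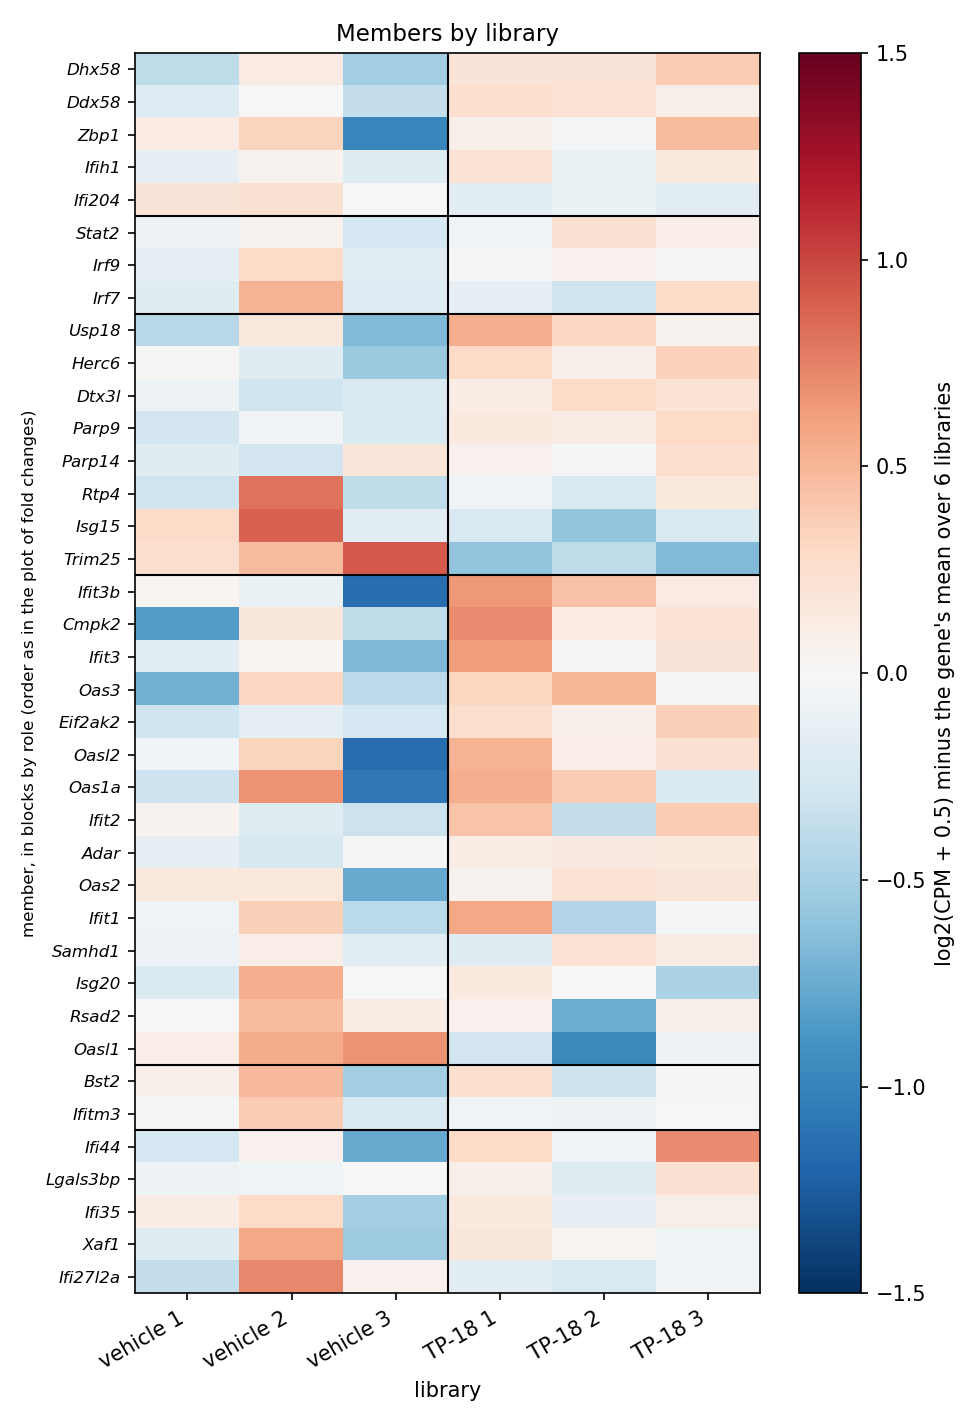
Level of each member (rows, in blocks by role) in each of the 6 libraries (columns), as log2(CPM + 0.5) minus the mean of the gene over the libraries; red is higher and blue lower. The vehicle 2 column is mostly red and the vehicle 3 column mostly blue. Trim25 and Oasl1 are the strongest red rows of vehicle 3, and some rows of vehicle 2, such as Dtx3l and Parp14, are blue.

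Cell type markers also differed between the libraries. The 8 macrophage markers, all present in every library, summed to 3180 CPM in vehicle 2 against 5823 and 6777 CPM in vehicle 1 and 3. With TP-18 they summed to 4446, 3708 and 5370 CPM in TP-18 1 to 3. The 6 neutrophil markers with a row summed to 228 CPM in vehicle 2 against 55.5 and 88.9 CPM in vehicle 1 and 3. In TP-18 1 to 3 the neutrophil sums were 58.3, 133 and 67.4 CPM. Most of the vehicle 2 sum came from Mmp8 and S100a8 (103 and 90.6 CPM), whereas Csf3r was lowest there among vehicle libraries (14.5 CPM). Vehicle 2 and TP-18 2 each had the lowest macrophage and highest neutrophil sum of their group. Vehicle 2 was the lowest vehicle library for 7 of the 8 macrophage markers, by unlike amounts. C1qa had 468 CPM there against 1536 and 1670 CPM in vehicle 1 and 3, whereas Mrc1 had 721 CPM against 759 CPM in vehicle 1. TP-18 2 was the lowest of its group for 4 macrophage markers and the highest for 2, Mrc1 (898 CPM) and Mertk (144 CPM). The mean of the members was the highest of its group in vehicle 2 (0.23) and the lowest in TP-18 2 (−0.04). All 6 fibroblast markers had positive log2 fold changes, and their sums of 738 to 1195 CPM in vehicle and 1470 to 1827 CPM with TP-18 did not overlap. The 4 endothelial markers ranged from 29.9 to 141 CPM in vehicle and from 88.7 to 156 CPM with TP-18. Summed monocyte markers were 344 to 1178 CPM in vehicle and 377 to 1259 CPM with TP-18, and those of T and NK cells 13.1 to 30.5 and 9.01 to 22.9 CPM. Conventional dendritic cell markers summed to 8.37 to 14.3 and 4.94 to 6.28 CPM, and B cell markers to 1.20 to 3.93 and 2.44 to 8.30 CPM. Within these lists single markers lay apart, which the sums do not show. Values were higher in every TP-18 library for Ccr2 (monocytes, log2 fold change 1.62 ± 0.53), Kdr (endothelial, 1.19 ± 0.19) and the low Cd4 (T cells, 1.85 ± 0.63). They were lower in every TP-18 library for Cd68 (macrophages, −0.48 ± 0.18) and Zbtb46 (dendritic cells, −1.17 ± 0.28). None of these markers passed the edgeR test. All 4 endothelial markers had positive log2 fold changes. The part of these cell types in the members' values was not tested. Plasmacytoid dendritic cells, known as strong producers of interferon, had 6 reads of Siglech, 18 of Ccr9, 6 of Pacsin1, 1 of Klk1 and 197 of Cox6a2 over all 6 libraries. Tcf4, also expressed by stromal cells, made up nearly all of that list, at 113 ± 17.3 and 136 ± 6.73 CPM (SD, n = 3 each). Of the carcinoma markers Krt20 was at 436 ± 92.1 and 415 ± 152 CPM (SD, n = 3 each) and Epcam at 0.57 ± 0.48 and 0.18 ± 0.17 CPM. Cdh1, in the same list, was low but apart and higher with TP-18, at 0.93 ± 0.56 and 2.24 ± 0.075 CPM (SD, n = 3 each).

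Upstream of the members, no gene of the pathway lists passed the edgeR test. Of 14 interferon genes listed, 4 had a row and 2 were tested, Ifnb1 and Ifng. Ifnb1, which encodes interferon-β, had 11.7, 5.66 and 1.06 CPM in vehicle and 5.07, 0.76 and 4.59 CPM with TP-18. Its level differed more within each group than between them, and vehicle 1 was its highest library. The relation of Ifnb1 to the member values was not tested. Of the 5 receptor and transduction genes, 3 had negative log2 fold changes. Ifnar1, a receptor chain, had 215, 168 and 204 CPM in vehicle and 117, 122 and 158 CPM with TP-18. Those groups lay apart (−0.56 ± 0.17, edgeR adjusted p = 0.216), as did those of Jak1 (−0.29 ± 0.16, edgeR adjusted p = 0.400).

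Of 15 genes for the induction of interferon, 9 had negative log2 fold changes (60.0%, against 47.4% of all genes). Of the 15, 1 lay apart and higher (6.67%, against 11.6% of all genes) and 3 lower (20%, against 11.7%). Irf1, an early response factor, was the most abundant and was lower in every TP-18 library, at 266 ± 19.9 CPM in vehicle and 191 ± 32.7 CPM with TP-18 (SD, n = 3 each). Tbk1, the kinase that activates Irf3, and Irf5 overlapped. The 1 gene apart and higher was Tlr3, the endosomal receptor of double-stranded RNA, named after its values were seen. It had 7.87, 9.25 and 7.81 CPM in vehicle and 16.3, 16.5 and 15.8 CPM with TP-18. This difference (0.96 ± 0.17, edgeR adjusted p = 0.102) was large against the spread of each group.

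Of 7 negative regulators, 5 had negative log2 fold changes (71.4%, against 47.4% of all genes), with a median of −0.46. Of the 7, 3 lay apart and lower (42.9%, against 11.7% of all genes). Socs3, which curbs cytokine receptors that signal through Stat3, was the most abundant, at 647 ± 141 CPM in vehicle and 424 ± 134 CPM with TP-18 (SD, n = 3 each), with overlapping groups. Trex1, the exonuclease that clears cytosolic DNA, had 83.7, 75.9 and 69.7 CPM in vehicle and 51.8, 44.8 and 57.5 CPM with TP-18 (−0.57 ± 0.14, edgeR adjusted p = 0.169). Socs1, a feedback inhibitor of the interferon receptor kinases and named after its values were seen, had 24.8, 26.0 and 27.0 CPM in vehicle and 12.6, 18.6 and 10.9 CPM with TP-18 (−0.89 ± 0.22, edgeR adjusted p = 0.166). Both were lower in every TP-18 library. Ptpn6, a phosphatase of blood cells, overlapped widely.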

How the data were processed

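RNA from tumour-derived cells was sequenced in 3 vehicle and 3 TP-18 libraries. The authors deposited raw counts per gene and, in a second table, FPKM values, which equal the count divided by the library total and 1 length per gene. Tools named are fastp, HISAT2 and HTSeq, with the GRCm38 build, per the submitters' processing notes, and versions, annotation release and use of strand were not given in the sources used here. Testing was with edgeR 4.0.16 under R 4.3.3 (filterByExpr minima of 10 per library and 15 in total, TMM, quasi-likelihood fit, Benjamini-Hochberg adjustment over 12721 genes, two-sided, threshold 0.05), checked first on simulated data. CPM use TMM-scaled library sizes, with factors of 0.924 to 0.962 in vehicle and 1.05 to 1.07 in TP-18 libraries. Library totals move the median over all genes from 0.02 to 0.20 (log2). Libraries of a group differed beyond sampling noise, and each was counted as 1 sample.

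Alternatives were RLE factors, library totals, DESeq2 1.42.0, limma 3.58.1 on voom values and on log2(FPKM + 1) and log2(FPKM + 0.1), no filter, a replicate block and each library left out. The members, the lists and the tests were chosen with earlier results of these data known. Values per library are given for members whose groups do not overlap, the 5 with the smallest p in each direction, the 5 with the highest mean FPKM, and up to 3 abundant genes per pathway list. Values for other members, counts at an unadjusted p, and ratios of members were added after the data were seen. Positions are from GENCODE M21 and promoters from RefSeq, both on GRCm38. The shared start region of Parp9 and Dtx3l is transcribed and its sequence is not printed. Some listed genes are not reported here. Plots used matplotlib 3.10.9 under Python 3.11.15.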

Additional observations from a re-analysis of the deposited data

How the results depend on the processing

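No member passed an adjusted p of 0.05 with edgeR under any scaling or filter, with limma, or with any library left out, and DESeq2 called 2. The count of members with a negative log2 fold change, 12 as reported, was 8 with library totals. It was 7 with limma on log2(FPKM + 1) and 7 on log2(FPKM + 0.1). With a library left out the count ranged from 6 to 18 and the median from 0.06 to 0.30. The median was 0.36 with library totals, 0.34 with limma on log2(FPKM + 1) and 0.36 on log2(FPKM + 0.1). In these 3 settings the median over all genes was 0.20, 0.15 and 0.20. Over 14 alternatives 25 of 38 members never changed sign, 19 higher and 6 lower. With library totals the sign turned for Irf7 (0.062), Irf9 (0.17), Bst2 (0.11) and Ifitm3 (0.064). With limma on log2(FPKM + 1) and on log2(FPKM + 0.1) it turned for Irf7 (0.080 and 0.081), Irf9 (0.18 and 0.19), Rtp4 (0.070 and 0.087), Bst2 (0.15 and 0.15) and Ifitm3 (0.086 and 0.087), and with voom for Irf9 (0.0087). Other sign changes came from leaving out a library, with ranges of −0.055 to 0.52 for Zbp1, −0.30 to 0.15 for Irf7, −0.11 to 0.15 for Irf9, −0.43 to 0.30 for Rtp4, −0.22 to 0.32 for Ifit1, −0.0080 to 0.96 for Oas1a, −0.025 to 0.36 for Oas2, −0.42 to 0.0082 for Isg20, −0.31 to 0.18 for Bst2, −0.26 to 0.063 for Ifitm3, −0.19 to 0.21 for Ifi35, −0.22 to 0.40 for Xaf1 and −0.0053 to 0.20 for Lgals3bp; the cause was not tested. Members higher at an unadjusted edgeR p under 0.05, 9 as reported, numbered 15 with library totals, 14 with limma on FPKM, and 2 to 10 with a library left out; members lower, 4 as reported, numbered 2 with library totals and with limma on FPKM, and 2 to 4 with a library left out. With the replicate number as a block (replicate block) 0 members and 3 genes in all were called, the median was 0.19 and Irf9 was at 0.0089. Same-numbered libraries correlated at 0.16, 0.39 and −0.15 in their deviations, and differently numbered ones at −0.59 to 0.50. With 3 libraries per group these values cannot decide whether equal numbers mark a pairing. Ifit3b, the member with the fewest reads, had 23 to 121 per library, and its values are the least precise.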

Other observations

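The ratios of 3 pairs of functionally linked members, picked after their values were seen, differed between the groups. They were taken from FPKM within a library, and library scaling leaves such a ratio untouched. Oasl1 over its neighbour Oasl2 was 5.15, 5.48 and 16.7 in vehicle and 2.65, 2.21 and 3.77 in TP-18 libraries. Isg15 over Usp18, which removes it from proteins, was 9.17, 9.28 and 8.00 in vehicle and 3.25, 2.97 and 4.60 in TP-18 libraries. Trim25 over Ddx58, the sensor it activates, was 6.88, 7.12 and 12.5 in vehicle and 2.82, 3.36 and 3.04 in TP-18 libraries. For each of these ratios the vehicle libraries lay above the TP-18 libraries without overlap, and the 3 vehicle values of Isg15 over Usp18 were close although both genes differed widely among those libraries. Each pair set a member with lower values after TP-18 over one with a positive log2 fold change, so the direction of the ratios came with the choice. For Trim25 over Ddx58 the separation was fixed in advance, since in FPKM Trim25 lay apart and lower and Ddx58 apart and higher. The ratios describe chosen pairs, add no separate group difference and were not tested.

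A further 41 interferon stimulated genes outside the list were all tested. None passed the edgeR test, and 5 had an unadjusted edgeR p under 0.05 (12.2%, against 16.3% of all genes). There were 24 positive and 17 negative log2 fold changes (41.5% negative, against 47.4% of all genes), with a median of 0.07. Of the 41, 6 lay apart and higher (14.6%, against 11.6% of all genes) and 4 lower (9.76%, against 11.7%). Ly6e, a surface protein, was the most abundant, at 446 ± 173 CPM in vehicle and 539.9 ± 174 CPM with TP-18 (SD, n = 3 each). Rnf213, a large ubiquitin ligase, and Ifitm2, a relative of Ifitm3, followed, at log2 fold changes of 0.25 ± 0.28 and −0.19 ± 0.12. Named after their values were seen, Ddx60, a helicase linked to RIG-I signalling (0.46 ± 0.14), Pml, the organiser of nuclear bodies (0.55 ± 0.20), and Parp11 (0.61 ± 0.21) had higher values in every TP-18 library. So had Trim21 (0.40 ± 0.24), Parp12 (0.22 ± 0.11) and Sp100 (0.19 ± 0.12). Values were lower in every TP-18 library for Slfn8 (−0.45 ± 0.15), Mndal (−0.31 ± 0.15), Shisa5 (−0.23 ± 0.13) and Ifitm2.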
